A study of Mus musculus with 8 samples.

Results

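The genes described here are the proteasome subunits, taken as the 45 genes of 24054 in the deposited table whose symbol begins with Psma, Psmb, Psmc, Psmd or Psme followed by a number. They were measured by RNA-seq in soleus (SOL), a slow postural muscle of the lower leg, of 4 MI4KO mice and 4 flox mice, with 1 library per mouse. All 8 were male C57BL/6 mice, and the labels record a high fat diet for them but no age. MI4KO mice carried floxed Irf4 alleles and a Cre driven from the Myl1 locus, which is active in skeletal muscle fibers, whereas flox mice carried the floxed alleles without Cre. The RNA came from whole muscle, so cells other than fibers kept Irf4 in both groups, and in such bulk samples fewer cells of a type and less RNA per cell cannot be told apart. Within each group the mice are called 1 to 4, following their label numbers from low to high. The comparison asks whether loss of Irf4 in the fibers came with a change in the transcripts of the proteasome.

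The proteasome is the large protease that degrades ubiquitin-tagged proteins. Its core, the 20S particle, is a barrel of alpha rings, which gate the entrance, and beta rings, which hold the proteolytic sites. The 19S cap sits on the barrel, and its ATPases unfold the substrate while its non-ATPase subunits recognise ubiquitin and remove it. Immune cells and cells exposed to interferon exchange the catalytic beta subunits for the immunoproteasome subunits Psmb8, Psmb9 and Psmb10, and the PA28 and PA200 activators can take the place of the cap. In skeletal muscle this protease carries out much of the breakdown of contractile proteins during atrophy, and its subunit genes are known to be raised together by the transcription factor encoded by Nfe2l1. IRF4 itself is an interferon regulatory factor that binds DNA at interferon response elements and, with an ETS partner, at Ets-IRF composite elements.

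Levels are given as the deposited values, TMM-normalized CPM, that is read counts scaled to a common library size by the trimmed mean of M-values, which equalises libraries on the bulk of their genes. Between 13417512 and 16384565 reads per mouse lay on genes, and 3 reads on a gene, taken as the smallest detectable amount, correspond to values of 0.181 to 0.225. Groups were compared by limma, on log2(value + 1), for the 11865 genes that reached a value of 1 in 4 or more mice, and 43 of the 45 proteasome genes passed this filter. Irf4 was at 0.686, 1.46, 1.58 and 1.68 in flox mice 1 to 4 and at 0.725, 0.84, 0.266 and 1.03 in MI4KO mice 1 to 4. Flox mouse 1 lay within the MI4KO range, and the log2 fold change (log2FC, MI4KO minus flox) of Irf4 was -0.45 (standard error, SE, 0.20; adjusted p = 1.0 by limma). On the recovered reads, without an added value of 1, it was -0.86 with edgeR and -0.87 with DESeq2. All 10 fiber markers were detected in every library and high, summing to between 92420 and 112974. Liver markers stood out in flox mouse 1, where they summed to 167 against 6.31 to 15.9 in the others, and neutrophil markers in MI4KO mouse 3, at 4.99 against 0.312 to 0.825.

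No proteasome gene passed the test for a difference between MI4KO and flox SOL. None of the 43 genes tested had an unadjusted p under 0.05, a limit that 3.36% of all genes passed, and none had an adjusted p under 0.05, as was the case for 0.00% of all genes. None passed the limits of the study, an unadjusted p under 0.05 and a change of 1.5-fold or more, which 0.219% of all genes passed. edgeR's quasi-likelihood test and DESeq2 on the recovered reads also put 0 of the 43 under an unadjusted p of 0.05. The smallest p was that of Psmc6, a 19S ATPase (unadjusted p = 0.115, adjusted p = 1.0 by limma). Under a plain library size scaling, 2 genes came under an unadjusted p of 0.05, Psma4 and Psme4, both with an adjusted p of 0.954 by limma. Of all 11865 genes, 395 came under it on that scale. Psmc6 had the highest log2FC, 0.14 (SE 0.08), and Psme2b, a lowly expressed copy of the activator gene Psme2, had the lowest, -0.27 (SE 0.20). Adding 1 to each value pulls such low genes towards 0, and on the recovered reads the log2FC of Psme2b was -0.551 with edgeR and -0.544 with DESeq2. For 42 of the 43 genes the 95% interval of the fold change of value + 1 lay within 1.5-fold in either direction, and Psme2b, with an interval from 0.616 to 1.11, was the exception. For genes with values near 2, such as Psmb9 and Psmc3ip, the added 1 narrows this interval.

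**Figure D1:**
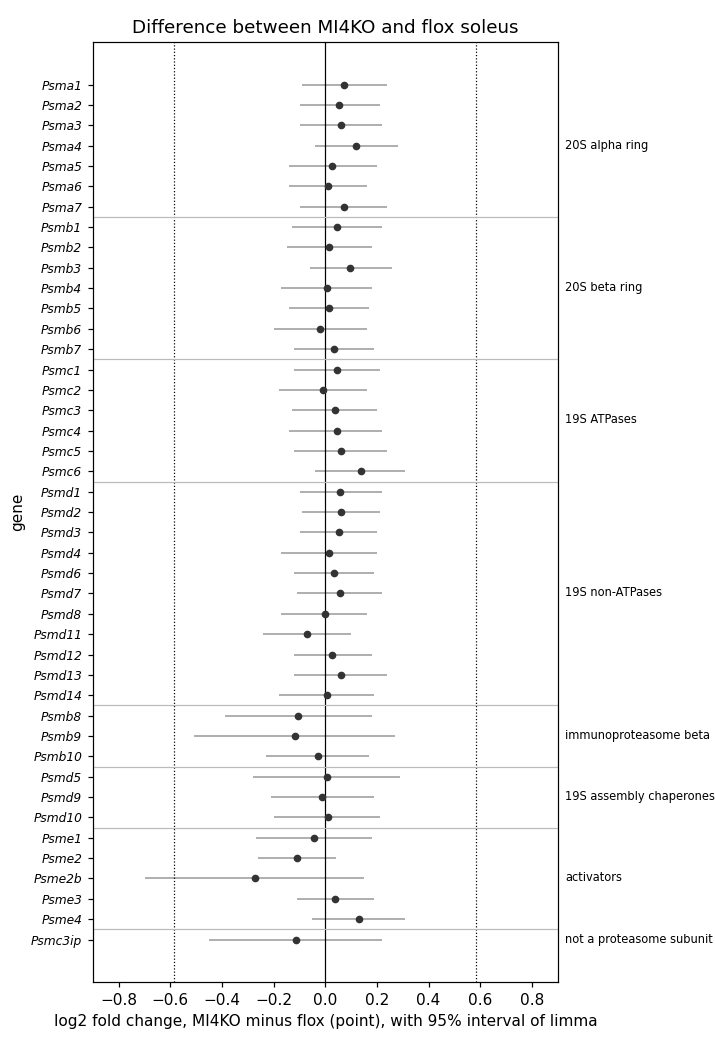
Log2FC of each of the 43 proteasome genes tested, MI4KO minus flox (x axis, log2 scale), with the 95% interval of limma over 4 mice per group, grouped by subcomplex, and dotted lines at a fold change of 1.5. Every interval includes 0, the 31 constitutive subunits lie between -0.07 and 0.14, and Psme2b alone reaches past a dotted line.

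Promoter windows of 300 bases, from 250 before to 50 after the start, were taken from RefSeq on GRCm38.p6 for 38 of the 45 genes, in 41 windows; Psma8, Psmb1, Psmb2, Psmb7, Psmc3, Psmd3 and Psmd7 had none in the table used. They were searched on both strands for the core of the antioxidant response element, TGACNNNGC, the kind of site that the Nfe2l1 protein binds, and for the Ets-IRF composite element, GGAANNGAAA. The first was found in 14.6% of the proteasome windows and in 12.4% of all 32851 windows of this length, and the second in 4.88% and 2.72%. The interferon-stimulated response element core, GAAANNGAAA, was found in 9.76% and 3.44%, that is in 4 proteasome genes, Psmb3, Psmd4, Psmd9 and Psme1, and the CCAAT box in 36.6% and 37.4%. In Psme1 the interferon-stimulated response element core overlaps the Ets-IRF composite element. Shown first are Psmb5, a catalytic subunit, and Psmc6, the subunit with the highest log2FC, with the antioxidant response element core in capitals (as its reverse complement in Psmc6). Psme1 and Psmc2 follow, the 2 genes with the Ets-IRF composite element, in capitals (as its reverse complement in Psme1). Each is written 5′ to 3′ on the strand of its gene.
Psmb5 (chr14:54617946-54618245, minus strand): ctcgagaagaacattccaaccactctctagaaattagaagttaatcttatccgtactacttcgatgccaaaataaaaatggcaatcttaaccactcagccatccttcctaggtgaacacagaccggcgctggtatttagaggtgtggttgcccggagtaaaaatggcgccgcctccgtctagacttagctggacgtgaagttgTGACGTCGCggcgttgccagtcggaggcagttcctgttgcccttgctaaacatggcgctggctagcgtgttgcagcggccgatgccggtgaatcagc
Psmc6 (chr14:45329574-45329873, plus strand): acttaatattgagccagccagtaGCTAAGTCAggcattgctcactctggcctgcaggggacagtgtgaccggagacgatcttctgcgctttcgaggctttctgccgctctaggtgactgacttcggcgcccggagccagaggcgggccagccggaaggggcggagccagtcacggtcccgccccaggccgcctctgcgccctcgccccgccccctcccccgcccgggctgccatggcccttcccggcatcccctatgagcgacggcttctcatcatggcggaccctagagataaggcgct
Psme1 (chr14:55578244-55578543, plus strand): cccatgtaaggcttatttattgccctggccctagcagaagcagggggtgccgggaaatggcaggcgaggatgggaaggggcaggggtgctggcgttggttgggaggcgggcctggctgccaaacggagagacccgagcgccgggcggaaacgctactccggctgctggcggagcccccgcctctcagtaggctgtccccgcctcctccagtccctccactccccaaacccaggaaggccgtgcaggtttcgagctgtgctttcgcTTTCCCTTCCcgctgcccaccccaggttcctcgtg
Psmc2 (chr5:21786497-21786796, plus strand): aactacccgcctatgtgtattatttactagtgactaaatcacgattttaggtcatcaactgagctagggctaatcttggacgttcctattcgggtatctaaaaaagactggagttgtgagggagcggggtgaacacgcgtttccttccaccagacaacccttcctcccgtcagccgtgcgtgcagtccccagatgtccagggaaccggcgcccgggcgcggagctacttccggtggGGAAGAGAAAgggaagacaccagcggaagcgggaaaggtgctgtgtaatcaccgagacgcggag

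None of these 4 genes had an unadjusted p under 0.05, with log2FC values of 0.02 for Psmb5, 0.14 for Psmc6, -0.04 for Psme1 and -0.01 for Psmc2. Psme2, the gene with separate groups on the deposited scale, had no Ets-IRF composite element in its window, which says only that these letters are not there.

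The 31 constitutive subunits, the 14 of the 20S core and the 17 of the 19S cap, had SEs of 0.07 to 0.08. The SEs of the activators Psme2, Psme3 and Psme4 lay in the same range. The log2FC values of the 31 ranged from -0.07 for Psmd11 to 0.14 for Psmc6 with a median of 0.04. The fold change intervals of the 31 all lay between 0.848 and 1.24. Of the 31, 27 were above 0, among them all 7 alpha subunits, 6 of 7 beta subunits, 5 of 6 ATPases and 9 of 11 non-ATPase subunits. Of all genes tested, 43.8% were above 0, and their median was -0.01. Subunits of a complex are not independent replicates, and this count depended on MI4KO mouse 1, without which 16 of the 31 were above 0. Leaving out any other single mouse gave 23 to 30. With all 8 mice it was 30 under library size scaling, median-of-ratios scaling, edgeR and DESeq2. The median log2FC over all genes was then 0.026, 0.004, 0.002 and 0.005. The median coefficient of variation of the constitutive subunits over the 8 mice was 6.82%. The 1728 genes of the same range of levels, taken as means over the 8 mice between 65.0 and 358, had a median of 7.62%. Transcript sums of the 31 subunits were 4197, 4081, 4443 and 4184 in flox mice 1 to 4 and 4646, 4255, 4522 and 3970 in MI4KO mice 1 to 4. The MI4KO mice held both the highest and the lowest sum. The flox mean was 4226 ± 154 and the MI4KO mean 4348 ± 300.5 (SD, n = 4 each), a ratio of 1.03, and the difference was smaller than the SD of the MI4KO mice.

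The alpha subunits form the outer rings and the gate of the 20S core. Their flox means ran from 73.3 for Psma5 to 119 for Psma6, and all 7 had a log2FC above 0, at most 0.12. Psma4 had the highest, with 96.3, 89.3, 98.7 and 87.4 in flox mice and 109.7, 96.1, 103 and 94.8 in MI4KO mice. MI4KO mouse 1 was the highest of all, while MI4KO mice 2 and 4 lay within the flox range. Its log2FC was 0.12 (SE 0.07, adjusted p = 1.0 by limma), and 19.2% of the 50-base stretches of its transcripts also occur in a similar annotated gene, so part of its reads could have been assigned either way. Psma6 had the lowest log2FC of the ring, 0.01 (SE 0.07), with flox mice at 125, 120, 117 and 112 and MI4KO mice at 128, 118, 121 and 111. The groups overlapped almost wholly. Psma8, the alpha subunit of the testis proteasome, had 0 to 2 reads in each mouse and was not detected.

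The beta rings carry the catalytic sites, and flox and MI4KO values overlapped for the 3 catalytic subunits Psmb5, Psmb6 and Psmb7. The highest of the 8 mice was at 1.22, 1.3 and 1.2 times the lowest for these genes. Psmb5, the chymotrypsin-like subunit, was at 136, 141, 140.3 and 140.3 in flox mice and at 155, 142, 141 and 127 in MI4KO mice. The flox mice agreed closely, and the MI4KO mice surrounded them, with mouse 1 above and mouse 4 below. Its log2FC was 0.02 (SE 0.07, adjusted p = 1.0 by limma). Psmb6, the caspase-like subunit, was at 135, 130.2, 142 and 134 in flox mice and at 142, 131, 149 and 115 in MI4KO mice, and its log2FC was -0.02 (SE 0.08). Psmb7, the trypsin-like subunit, was at 200.4, 205, 213 and 199.7 in flox mice and at 226, 213, 213 and 189 in MI4KO mice, with a log2FC of 0.03 (SE 0.07). For both genes MI4KO mouse 4 was the lowest of all 8 mice. Psmb3, a structural beta subunit without a proteolytic site, had the highest log2FC of the ring, 0.10 (SE 0.07). It was at 103, 99.8, 104 and 98.5 in flox mice and at 113, 111, 115 and 95.8 in MI4KO mice, so that 3 MI4KO mice were above all flox mice and MI4KO mouse 4 was below them. More than 50% of the 50-base stretches of Psmb3 and Psmb5 occur also in annotated copies, at 55.8% and 54.1%. Part of their reads could thus have been assigned either way, and how many were was not measured. Psmb11, the beta subunit of the thymus proteasome, lies next to Psmb5 on chromosome 14 and had 3 to 12 reads per mouse, with values between 0.219 and 0.798, below the filter.

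The immunoproteasome subunits were low in SOL beside their constitutive counterparts, and none passed the test between the groups. Psmb8, which replaces Psmb5, was at 4.3, 5.62, 5.33 and 5.83 in flox mice and at 4.35, 5.62, 4.06 and 5.32 in MI4KO mice. Psmb9, which replaces Psmb6, was at 1.43, 3.12, 1.58 and 2.19 in flox mice and at 1.38, 2.2, 1.73 and 1.87 in MI4KO mice. Psmb10, which replaces Psmb7, was at 12.6, 14.5, 14.2 and 13.7 in flox mice and at 13.6, 12.0, 13.9 and 14.4 in MI4KO mice. The groups overlapped for each of the 3 genes, and flox mouse 2 was the highest of all mice for Psmb9 and Psmb10. Their log2FC values were -0.11 for Psmb8 (SE 0.13), -0.12 for Psmb9 (SE 0.18) and -0.03 for Psmb10 (SE 0.09), each with an adjusted p of 1.0 by limma. Psmb9 rested on 19 to 45 reads per mouse, and its interval, from 0.705 to 1.21 in the fold change of value + 1, was wider than that of any constitutive subunit.

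Per kilobase of transcript, a scale on which levels of different genes can be set side by side, the flox means were 183 for Psmb5, 169.6 for Psmb6 and 176 for Psmb7, against 3.24 for Psmb8, 1.54 for Psmb9 and 10.5 for Psmb10. As a share of the sum of itself and Psmb7, Psmb10 made up 5.61% ± 0.261 in flox and 5.40% ± 0.698 in MI4KO mice (SD, n = 4 each). The corresponding share of Psmb8 was 1.73% ± 0.193 in flox and 1.59% ± 0.324 in MI4KO mice, and that of Psmb9 was 0.906% ± 0.359 and 0.797% ± 0.204 (SD, n = 4 each). Exact two-sided permutation tests of these 3 shares gave p = 0.571 for Psmb10, p = 0.486 for Psmb8 and p = 0.657 for Psmb9, where the smallest p that 4 mice against 4 allow is 0.0286. Lymphocyte markers were near 0, with 10 markers summing to 0.686 to 1.11 in flox mice and 0.399 to 1.1 in MI4KO mice, and none of them passed the filter. The 6 dendritic cell and antigen presentation markers, 4 of which passed it, summed to 25.1 to 32.4 in flox mice and 19.3 to 29.6 in MI4KO mice, with the highest sum in flox mouse 2, where Psmb9 was also highest. Whether the cells with these markers contributed to Psmb9 was not tested.

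**Figure D2:**
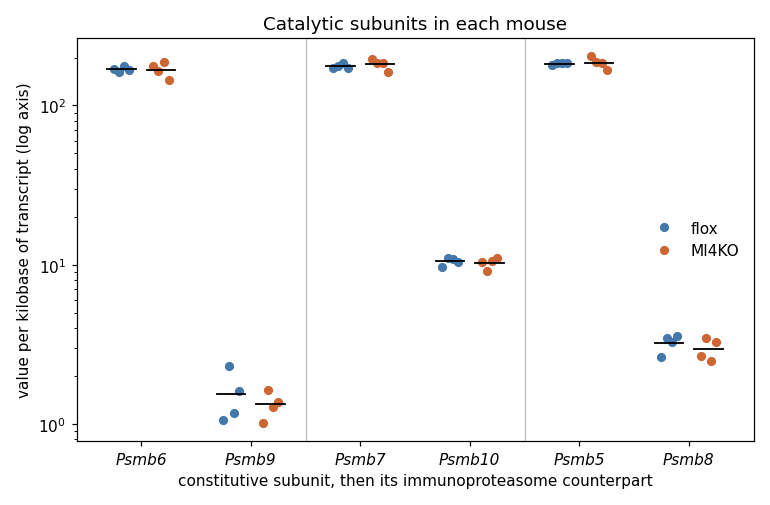
Value per kilobase of transcript (y axis, log scale) of the 3 constitutive catalytic subunits, each followed by its immunoproteasome counterpart, with 1 point per mouse, flox in blue and MI4KO in orange, and bars at the group means. The flox means of the constitutive subunits lie between 169.6 and 183 and those of their counterparts between 1.54 and 10.5, and flox and MI4KO points overlap for every gene.

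The 6 ATPases form the ring of the 19S cap that unfolds substrates. Psmc6 was at 89.6, 89.6, 92.2 and 83.5 in flox mice and at 111, 99.2, 95.2 and 86.5 in MI4KO mice. MI4KO mice 1, 2 and 3 were above every flox mouse and MI4KO mouse 4 was not. Without MI4KO mouse 4, the log2FC of Psmc6 was 0.19 (SE 0.08, unadjusted p = 0.0302, adjusted p = 0.902 by limma), and Psmb3 also came under an unadjusted p of 0.05. Of all 11865 genes, 618 came under it without that mouse. Psmc2 was at the other end of the ring, with a log2FC of -0.01 (SE 0.08). It was at 120.3, 124, 138 and 132 in flox mice and at 125, 121, 146 and 119 in MI4KO mice, where mouse 3 was the highest and mouse 4 the lowest of all. The flox means of the 6 ATPases ran from 88.7 for Psmc6 to 223 for Psmc3, and per kilobase from 39.7 for Psmc6 to 137 for Psmc3.

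Among the 11 non-ATPase subunits, Psmd2, the large scaffold subunit of the base of the cap, had the highest level. It was at 367, 334, 372 and 359.6 in flox mice and at 392, 363, 383 and 357 in MI4KO mice, and its log2FC of 0.06 (SE 0.07) was the highest of this group together with those of Psmd1, Psmd7 and Psmd13, which round to the same value. MI4KO mice 1 and 3 were above the flox range and the other two lay within it. Psmd11, a scaffold subunit of the lid, had the lowest log2FC of the constitutive subunits, -0.07 (SE 0.08, adjusted p = 1.0 by limma). It was at 98.8, 94.9, 115 and 114 in flox mice and at 103, 97.5, 98.3 and 101 in MI4KO mice. The MI4KO mice were close together and all lay inside the flox range. Psmd14, the lid subunit that removes ubiquitin from the substrate, had the lowest flox mean of the group, 65.0 ± 3.99 against 65.4 ± 6.72 in MI4KO mice, and Psmd4, a ubiquitin receptor, had 175 ± 10.6 against 177 ± 18.9 (SD, n = 4 each).

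Psmd5, Psmd9 and Psmd10 carry subunit symbols but encode chaperones that help to assemble the base of the cap and then leave it. They were lower than the subunits, with flox means of 26.4 for Psmd5, 20.4 for Psmd9 and 9.47 for Psmd10. Psmd5 had one of the 3 widest spreads over the 8 mice of all proteasome genes tested. It was at 26.6, 21.2, 29.9 and 27.8 in flox mice and at 32.1, 27.9, 21.1 and 25.2 in MI4KO mice. The highest mouse, MI4KO mouse 1, and the lowest, MI4KO mouse 3, belonged to the same group, and the log2FC was 0.01 (SE 0.13). Psmd10, also known as the oncoprotein gankyrin, was at 9.54, 10.1, 9.83 and 8.45 in flox mice and at 10, 9.63, 9.51 and 8.94 in MI4KO mice, with a log2FC of 0.01 (SE 0.09). Psmd9 was at 18.5, 21.2, 22.2 and 19.7 in flox mice and at 19.3, 18.3, 22.6 and 20.7 in MI4KO mice, with a log2FC of -0.01 (SE 0.09). Flox and MI4KO mice were interspersed for both.

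Of the activators, Psme2 was the single proteasome gene whose groups did not overlap, 1 of 43 where 2.07% of all genes tested did not overlap. Psme2 encodes the beta subunit of PA28, an interferon-induced ring that opens the gate of the 20S core, and GENCODE M21 places it at chr14:55587441-55591113 on the minus strand (GRCm38). It was at 31.2, 32.5, 33.1 and 33.0 in flox mice and at 31.0, 30.3, 29.4 and 29.2 in MI4KO mice. The gap was narrow, since flox mouse 1 and MI4KO mouse 1 differed by less than the spread within either group. The log2FC of Psme2 was -0.11 (SE 0.07, unadjusted p = 0.14, adjusted p = 1.0 by limma). Permuting its 8 values in an exact two-sided test gave p = 0.0286, the smallest possible, before any adjustment for the 43 genes. Any gene whose groups do not overlap gets this p, so it adds nothing to the separation. The separation belonged to the deposited scale. With a plain library size scaling the flox mice were between 30.8 and 33.7 and the MI4KO mice between 27.0 and 33.0 (exact permutation p = 0.429), and with median-of-ratios scaling they were between 31.0 and 33.2 and between 28.1 and 31.6 (exact permutation p = 0.114). On those scales other genes separated, each higher in MI4KO mice, Psmd3 under both and Psma4 under median-of-ratios scaling. Of all genes tested, 2.55% separated under library size scaling and 2.2% under median-of-ratios scaling. Psme2 shares 54.9% of its 50-base stretches with other annotated genes, chiefly its copy Psme2b. The sum of Psme2 and Psme2b was 33.7 ± 0.511 in flox and 30.8 ± 1.01 in MI4KO mice on the deposited scale (SD, n = 4 each), a ratio of 0.916, and its groups also did not overlap (exact permutation p = 0.0286). Psme2b made up a mean of 3.13% of that sum, so the sum largely repeats the result of Psme2.

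**Figure D3:**
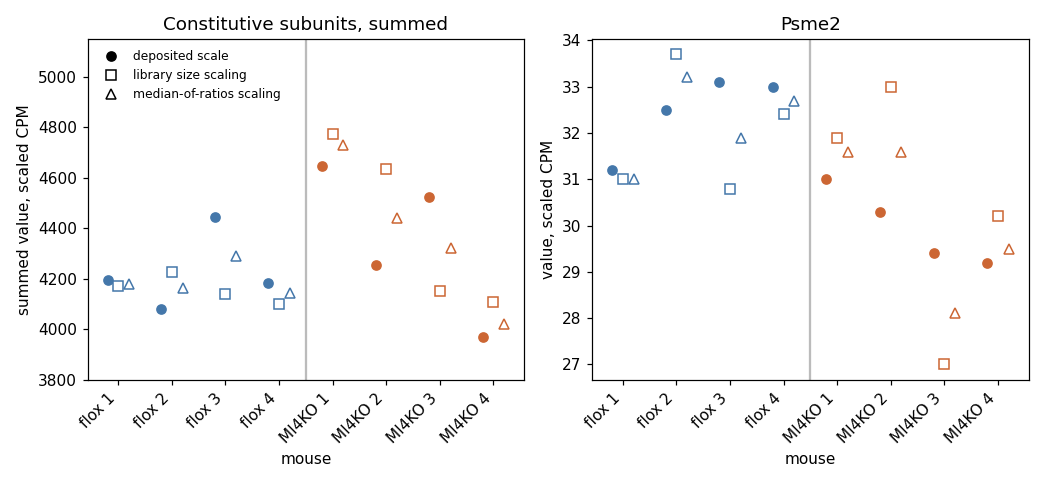
Left, summed value of the 31 constitutive subunits in each mouse (y axis, TMM-normalized CPM or its rescaled form, not starting at 0). Right, value of Psme2 in each mouse (same unit, not starting at 0), both under the deposited TMM scale (filled circles), library size scaling (squares) and median-of-ratios scaling (triangles), flox in blue and MI4KO in orange. MI4KO mouse 1 has the highest sum under each scale, and for Psme2 the 2 groups are apart on the deposited scale, up to 31.0 and from 31.2, but not on the others.

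Psme1, which encodes the alpha subunit of the same PA28 ring and lies close to Psme2 on chromosome 14, had overlapping groups. It was at 43.0, 49.4, 50.7 and 51.9 in flox mice and at 43.3, 42.6, 58.0 and 45.9 in MI4KO mice. MI4KO mouse 3 was the highest of all 8, and the other 3 MI4KO mice were below 3 of the flox mice. The log2FC of Psme1 was -0.04 (SE 0.10), and with flox mouse 1 and MI4KO mouse 3 left out together it was -0.20 (SE 0.08, unadjusted p = 0.0241, adjusted p = 0.895 by limma). Psme2b, the single-exon copy of Psme2 on chromosome 11, was at 1.81, 1.25, 1.13 and 0.656 in flox mice and at 1.16, 0.582, 0.465 and 1.09 in MI4KO mice. It had 7 to 29 reads per mouse, and 69.3% of its 50-base stretches occur elsewhere, so its values may in part be those of Psme2. Its adjusted p was 1.0 by limma. Psme3 encodes the PA28 gamma ring of the nucleus, and was at 85.4, 81.6, 87.8 and 84.3 in flox mice and at 95, 83.0, 88.3 and 82.3 in MI4KO mice, with a log2FC of 0.04 (SE 0.07). Psme4 encodes PA200, a single large chain that caps the core, and was at 201, 197, 192 and 169 in flox mice and at 214, 184, 229.7 and 204 in MI4KO mice. MI4KO mice 1, 3 and 4 were above every flox mouse and MI4KO mouse 2 was not, and the log2FC was 0.13 (SE 0.08, adjusted p = 1.0 by limma). Without MI4KO mouse 2 it was 0.19 (SE 0.08, unadjusted p = 0.0445, adjusted p = 1.0 by limma). Psmc3ip matches the naming rule but encodes a cofactor of meiotic recombination and no proteasome subunit. It was at 2.12, 2.57, 2.1 and 2.4 in flox mice and at 2.9, 2.13, 1.86 and 1.45 in MI4KO mice, and without it 42 genes were tested, again with 0 under an unadjusted p of 0.05.

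The constitutive subunits moved together in MI4KO mice 1 and 4. MI4KO mouse 1 had the highest value of all 8 mice for 19 of the 31 constitutive subunits, as it did for 12.9% of all genes tested. MI4KO mouse 4 had the lowest value for 19 of the 31, as it did for 14.4% of all genes. The median deviation of the 31 subunits from their own means was 0.125 on the log2 scale in MI4KO mouse 1, 0.072 in MI4KO mouse 3, -0.011 in MI4KO mouse 2 and -0.109 in MI4KO mouse 4. In flox mice 1 to 4 it was -0.036, -0.064, 0.043 and -0.033. In MI4KO mouse 1, 30 of the 31 subunits were above their mean, and in MI4KO mouse 4 none was. Of all 11865 genes tested, 5404 and 5402 were above their mean in these mice. The medians of the alpha ring, the beta ring, the ATPases and the non-ATPase subunits were 0.156, 0.124, 0.113 and 0.116 in MI4KO mouse 1 and -0.107, -0.141, -0.117 and -0.082 in MI4KO mouse 4. These were the highest and lowest of the 8 mice except that the ATPases were slightly higher in MI4KO mouse 3, at 0.118, and the non-ATPase subunits lower in flox mouse 2, at -0.103. The median over all genes was -0.018, -0.056, 0.066 and -0.015 in MI4KO mice 1 to 4. It was 0.008, -0.027, 0.051 and 0.013 in flox mice 1 to 4. In MI4KO mouse 3 and flox mouse 3 the medians of the 31 subunits, 0.072 and 0.043, were thus close to those of all genes. MI4KO mouse 3 had the highest value for 9 of the 31, and for 30.9% of all genes. The 3 immunoproteasome subunits did not share the order, with a median of -0.169 in MI4KO mouse 1 and 0.071 in MI4KO mouse 4. Under library size scaling the sum of the 31 subunits was again highest in MI4KO mouse 1, at 4774, whereas the lowest was that of flox mouse 4, at 4102, beside 4108 in MI4KO mouse 4. Of the 43 genes, 21 were lowest in MI4KO mouse 4 on the deposited scale, 16 under median-of-ratios scaling and 7 under library size scaling. Highest in MI4KO mouse 1 were 22, 29 and 29. The shares of all genes, 14.4% lowest in MI4KO mouse 4 and 12.9% highest in MI4KO mouse 1, belong to the deposited scale. They were not counted under the other scalings. Rescaling shifts every gene of a mouse, so the counts on those scales cannot be set against all genes. The sum of MI4KO mouse 2 was 4255 on the deposited scale and 4636 under library size scaling. That of MI4KO mouse 3 was 4522 and 4151. Below the top place of MI4KO mouse 1, the order thus depended on the scaling.

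**Figure D4:**
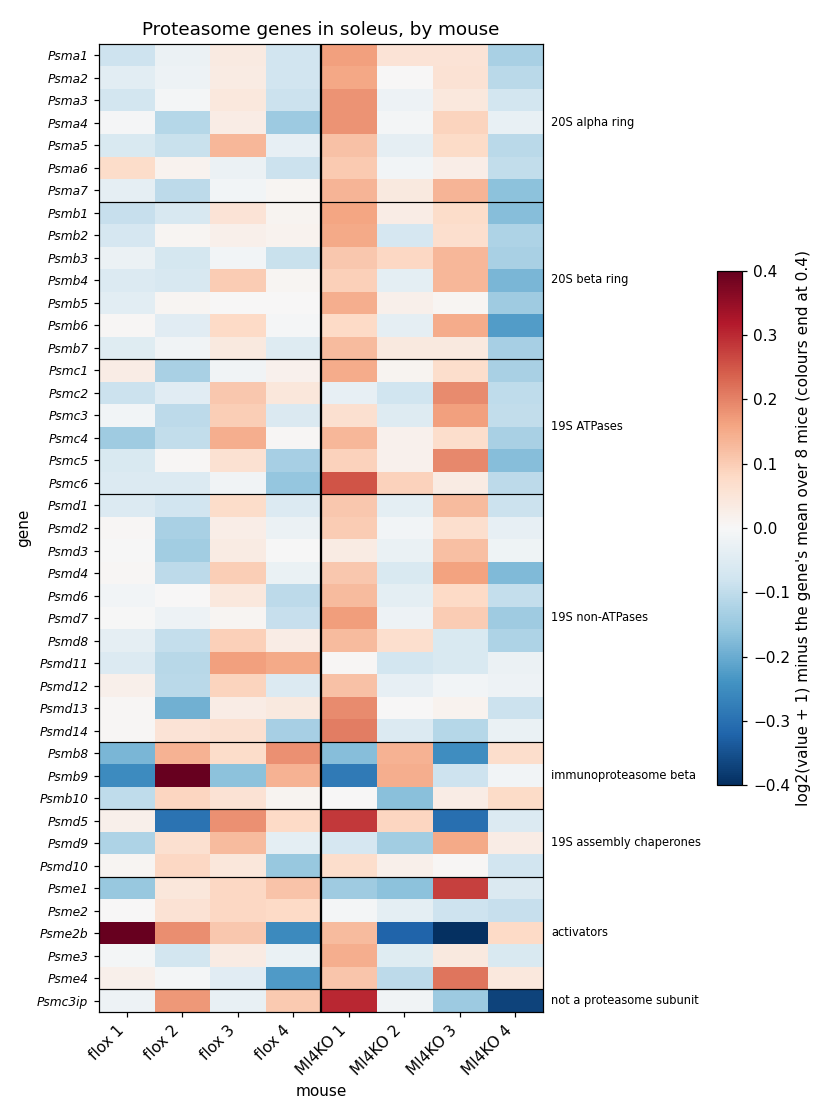
Deviation of each of the 43 proteasome genes tested from its own mean over the 8 mice (colour, log2(value + 1), red above and blue below, colours end at 0.4), with 1 column per mouse and 1 row per gene, grouped by subcomplex. On the deposited scale, 30 of the 31 constitutive subunits are above their mean in MI4KO mouse 1 and 27 in MI4KO mouse 3. In MI4KO mice 2 and 4, 13 and 0 are. Of all 11865 genes tested, 5404, 3666, 7488 and 5402 are above their mean in MI4KO mice 1 to 4.

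**Figure D5:**
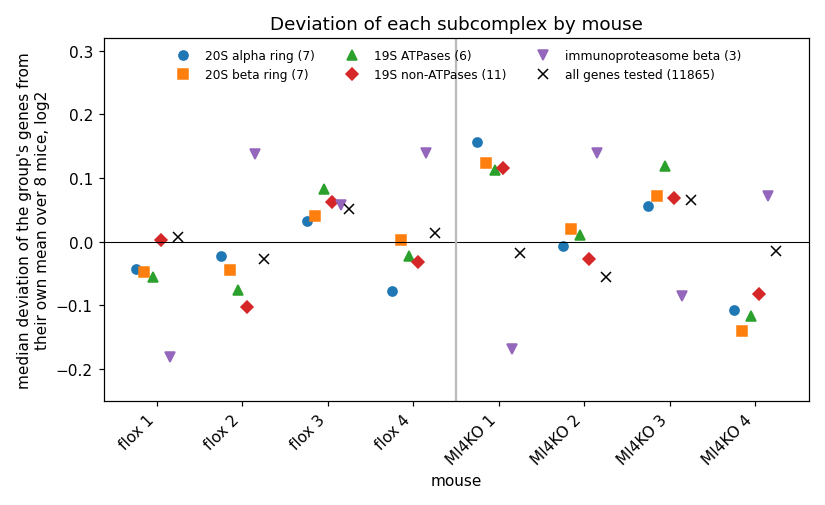
Median deviation of each subcomplex from its genes' own means (y axis, log2, deposited scale), by mouse, with the number of genes in brackets and crosses for all 11865 genes tested. The 4 constitutive subcomplexes lie between 0.113 and 0.156 in MI4KO mouse 1 and between -0.141 and -0.082 in MI4KO mouse 4, and the immunoproteasome subunits lie on the other side of 0 in both.

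Markers of cells other than fibers stood apart in some of these mice. In MI4KO mouse 1, where the constitutive subunits were highest, the sums of the 6 endothelial, 5 fibroblast, 6 adipocyte and 7 erythroid markers were the lowest of all mice. Endothelial markers summed to 252 in that mouse, against 332 to 346 in the other MI4KO mice and 334 to 388 in flox mice. Erythroid markers summed to 378 in MI4KO mouse 1 and 438 in MI4KO mouse 4. The erythroid markers Hbb-bt and Hbb-b2 had identical values in every mouse, 11.0 in MI4KO mouse 1, so each erythroid sum holds that value 2 times. In flox mouse 3, which had the third highest subunit sum on the deposited scale, endothelial and erythroid markers were the highest of all mice, at 388 and 599. Adipocyte markers summed to 10.7 in MI4KO mouse 1 and to 47.2 in MI4KO mouse 4, the mouse with the lowest subunit sum on that scale. They summed to between 28.4 and 39.2 in flox mice. Fibroblast markers summed to 241 in MI4KO mouse 1 and 386 in MI4KO mouse 4, and to between 297 and 393 in flox mice. Macrophage, leukocyte and Schwann cell markers summed to 46.6, 6.75 and 95.3 in MI4KO mouse 1 and to 50.5, 7.07 and 103 in MI4KO mouse 4. Fiber markers summed to 96675 in MI4KO mouse 1 and 95513 in MI4KO mouse 4, and to between 92420 and 112974 in flox mice. The part of fibers and of these other cells in the subunit levels was not tested. The mouse numbers in the labels fall in 2 ranges, a lower with 1 flox and 2 MI4KO mice and an upper with 3 flox and 2 MI4KO mice, and the labels do not say what the ranges mark. In the lower range the ratio of the summed constitutive subunits, MI4KO over flox, was 1.06, and in the upper range it was 1.0. The log2 difference of Psme2 was -0.02 in the lower range and -0.16 in the upper.

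Few other genes of the pathway, taken from lists of known members, came under the same limit. Of 18 tested assembly factors and associated proteins, 0 had an unadjusted p under 0.05 in limma. They include Shfm1, a small subunit of the lid, and Adrm1, a ubiquitin receptor of the cap, whose symbols the rule does not cover. Adrm1 averaged 105 ± 4.22 in flox and 106 ± 8.92 in MI4KO mice (SD, n = 4 each). Pomp, the chaperone of 20S assembly, averaged 92.9 ± 5.92 and 95.1 ± 4.98 (SD, n = 4 each), with a log2FC of 0.03 (SE 0.07). Psmf1, an inhibitor of the proteasome, had a log2FC of -0.05 (SE 0.10), and the ubiquitin-removing enzymes Usp14 and Uchl5 had 0.08 (SE 0.09) and 0.02 (SE 0.13). Nfe2l1 was highly expressed, at 2016, 1875, 2137 and 1923 in flox mice and 2115, 1942, 1707 and 1884 in MI4KO mice. Flox mouse 3 was the highest and MI4KO mouse 3 the lowest, the groups overlapped, and the log2FC of Nfe2l1 was -0.06 (SE 0.09). None of the 10 genes of subunit transcription, the 6 of ubiquitin and its activation and the 7 of muscle atrophy ligases that were tested had an unadjusted p under 0.05. Of the atrophy ligases, Trim63 was at 327 and Fbxo31 at 348 in MI4KO mouse 3, against at most 173 and 215 in any other mouse. Of the 12 interferon-linked partners, the 1 gene under an unadjusted p of 0.05 was Irf4 itself. The median log2FC of these 12 was -0.13, and the medians of the other lists lay between -0.05 and 0.06. Genes of a list are not independent replicates, and these medians were not tested.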

How the data were processed

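RNA-seq of SOL from 4 MI4KO and 4 flox mice was grouped by the condition in the sample titles. The authors prepared stranded mRNA libraries, sequenced 50-base single reads, demultiplexed them with bcl2fastq 2.17, mapped them with Bowtie2 2.1.0 to UCSC transcripts (mm10 per the labels), estimated expression with RSEM 1.2.15 and scaled it by TMM. This signal, CPM after TMM scaling, is what the authors deposited per gene and mouse. The authors' own fold changes, p-values and FDR from edgeR, deposited beside it, were not used. Every non-zero value was a whole multiple of a step of its mouse (100% within 0.05 of a whole read), so reads were recovered. These totals and floors cover counting error only.

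Genes that reached a value of 1 in 4 or more mice were tested with limma 3.58.1 (R 4.3.3) (trend option, log2(value + 1), two-sided), with Benjamini-Hochberg adjustment over all genes tested. Fold changes on this scale understate those of low genes. Single values were compared by exact two-sided permutation tests (scipy 1.17.1). Alternatives were a pseudocount of 0.5, no filter, no trend, 2 other scalings, edgeR 4.0.16 and DESeq2 1.42.0 on the recovered reads, the mouse number range as a covariate, each mouse left out, and flox mouse 1 and MI4KO mouse 3 left out together. Applying them also to Irf4, and the scalings and left-out mice to the sums and to the separation of groups, was chosen after seeing the data. The fit was tested on simulated data.

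The members and lists were chosen with earlier results of these data known. Values in every mouse are given for the catalytic subunits, their counterparts, the activators, genes whose groups did not overlap, the genes with the highest and lowest log2 fold change of each subcomplex and the 3 with the widest spread. Per-kilobase levels use the median length of protein-coding transcripts in GENCODE M21 on GRCm38, as do the shared 50-base stretches. Shared litters and library batches are not given in the sources used here, so p-values measure the spread between these mice only.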

Additional observations from a re-analysis of the deposited data

Results flagged for a closer look

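In 7 of the 94 groups of 4 mice examined (each of the 43 genes tested, Irf4 and 3 sums, in flox and in MI4KO mice), 1 mouse lay far from the other 3, with a gap, as a fraction of the group's range, past Dixon's critical value for 4 samples (values as log2). Chance gives about 1 in 20 groups, that is 4.7. Beta subunits gave 3 of them. Psmb2 was at 78.8 in flox mouse 1 against 83.1 to 83.9 in the rest of the flox mice (gap 0.85 of the range). Psmb5 was at 136 in flox mouse 1 against 140.3 to 141 (0.84). Psmb3 was at 95.8 in MI4KO mouse 4 against 111 to 115 in the rest of its group (0.83). Of the non-ATPase subunits, Psmd1 was at 202 in flox mouse 3 against 182 to 185 (0.848), Psmd13 at 78.8 in flox mouse 2 against 90.5 to 92.7 (0.855), and Psmd12 at 151 in MI4KO mouse 1 against 136 to 138 (0.911). The sum of the PA28 subunits Psme1 and Psme2 was 87.5 in MI4KO mouse 3 against 72.9 to 75.1 in the other MI4KO mice (0.837). Psmb3 in MI4KO mouse 4 and Psmd12 in MI4KO mouse 1 lie at the ends of the constitutive subunit order on the deposited scale. Liver markers were highest in flox mouse 1, where Psmb2 and Psmb5 were lowest among flox mice. The part of these in the values was not tested.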

How the results depend on the processing

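No alternative gave a proteasome gene an adjusted p under 0.05. Genes with an unadjusted p under 0.05 numbered 0 in limma and under most alternatives. They numbered 2 under library size scaling, where 395 of all 11865 genes passed that limit. With flox mouse 1 and MI4KO mouse 3 left out together there was 1, beside 637 of all genes. With single mice left out there were 0 to 2. These were Psme4 without MI4KO mouse 2, beside 457 of all genes, and Psmb3 and Psmc6 without MI4KO mouse 4, beside 618. The median log2FC of the genes tested, 0.03, was 0.07 under library size scaling and between -0.002 (without MI4KO mouse 1, with 18 of 43 genes above 0 in place of 31) and 0.066 (without MI4KO mouse 4) with single mice left out. Each such move was smaller than the spread between mice. Genes with separate groups numbered 2 under median-of-ratios scaling, where 2.2% of all genes tested separated, and 1 under library size scaling, where 2.55% did. The log2FC of Irf4 stayed below 0 under every alternative (lowest -0.87, with DESeq2), that of Psme2b moved from -0.27 to -0.551 with edgeR and -0.544 with DESeq2, and the sums of the constitutive, immunoproteasome and PA28 subunits kept their direction under both scalings and without any single mouse.

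Of 22 named genes, 10 kept their sign under every alternative, Psme2, Psme4, Psmc6 and Psmb8 among them, and 12 did not; the cause was not tested. With library size scaling Psmb10 was at 0.013, Psmb6 at 0.025, Psmc2 at 0.034 and Psmd9 at 0.032. With median-of-ratios scaling Psmb6 was at 0.001, Psmc2 at 0.010 and Psmd9 at 0.009. With edgeR Psmb6 was at 0.001, Psmc2 at 0.006 and Psmd9 at 0.005, and with DESeq2 at 0.003, 0.009 and 0.008. With the mouse number range as a covariate Psma6 was at -0.012, Psmb10 at 0.008, Psmc2 at 0.017, Psmd10 at -0.004, Psmd5 at -0.049, Psmd9 at 0.036 and Psme1 at 0.017. With single mice left out, the log2FC ranged from -0.021 to 0.045 for Psma6, -0.067 to 0.023 for Psmb10, -0.028 to 0.066 for Psmb5, -0.072 to 0.053 for Psmb6, -0.001 to 0.085 for Psmb7, -0.219 to 0.035 for Psmb9, -0.074 to 0.024 for Psmc2, -0.039 to 0.036 for Psmd10, -0.091 to 0.106 for Psmd5, -0.063 to 0.034 for Psmd9, -0.143 to 0.003 for Psme1 and -0.004 to 0.064 for Psme3.

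Depth limits Psmb9, Psme2b, Psmc3ip and Irf4, with at most 45 reads per mouse, and Psma8 and Psmb11, which did not pass the filter. Shared sequence limits Psme2, Psme2b, Psmb3, Psma5 and Psmb5. The groups' mice carry no common numbers. No paired analysis was possible because the labels give no litter or library batch by which to pair the mice.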
